A study of Mus musculus with 6 samples.

Results

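The Slc25 genes encode the mitochondrial carriers, a family of small transport proteins, and their transcripts were followed here in mouse LT-HSCs, the long-term stem cells of the blood, with and without re-expression of IMP1. Members were taken as every gene of the deposited count table whose mouse symbol is Slc25a followed by a number, which gave 47 of 21761 genes. The donor marrow was CD45.2 and carried the Mx1-Cre transgene in both groups. Control donors were Rosa26 +/+;Mx1-Cre tg/+, and IMP1 donors were Rosa26 I/+;Mx1-Cre tg/+, in which 1 Rosa26 allele carries IMP1 knocked in behind a Cre-dependent switch. IMP1 is an RNA-binding protein encoded by Igf2bp1. Marrow was transplanted into lethally irradiated CD45.1/2 hosts and Cre was induced with injections of poly(I-C), which sets off an interferon response. The Mx1 promoter that drives Cre answers to interferon and is not specific to stem cells, and both groups received the injections. At 8 weeks after the last injection, 200 CD45.2+ LSK CD150+ CD48- CD34- cells were sorted per library (LSK cells lack lineage markers and carry Sca-1 and Kit), and their cDNA was amplified with a kit for very small RNA inputs. There were 3 libraries per group, described as biological replicates, and the sources used here do not say how many mice each drew on.

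Most carriers sit in the inner mitochondrial membrane and exchange 1 class of solute across it, for example ADP for ATP, phosphate, dicarboxylates, amino acids or cofactors. They join the respiratory chain and the matrix enzymes to the cytosol, and they reach the inner membrane by way of the TOM receptor Tom70 and the TIM22 complex. LT-HSCs are known for low respiration and reliance on glycolysis at rest. Carriers of iron, glycine and pyrimidine nucleotides also serve haem synthesis and the upkeep of mitochondrial DNA.

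Control libraries held 25749898 to 27338450 counts and IMP1 libraries 50220629 to 67083116, on average 2.26 times as many, so depth moved with genotype and no label gives a batch by which the difference could be separated. Igf2bp1, the re-expressed gene, had at most 1 count in any Control library and 1870, 2084 and 2016 counts in the IMP1 libraries. All 10 LT-HSC markers were tested. Of these, edgeR and limma-voom called 0 and DESeq2 called 2 higher, beside 2.37% of all tested genes that DESeq2 called higher. At an unadjusted p under 0.05, 4 were higher (40%, beside 6.67% of all tested genes) and 0 lower (beside 7.63%). The 4 were Hlf (246 against 349.5 CPM), Fgd5 (18.1 against 37.2 CPM), Ctnnal1 (27.6 against 69.0 CPM) and Mllt3 (247 against 398 CPM). The fitted difference was positive for 8 of the 10 and negative for 2, Meis1 (999 against 846 CPM) and Hoxb5 (15.03 against 13.79 CPM). The summed level of the 10 markers ranged from 2162 to 2364 CPM in Control and from 2367 to 2895 CPM in IMP1 libraries, without overlap. Slamf1, which encodes CD150, stood at 105 against 113 CPM. Transcripts of the antigens used to sort cells out were present as well, Cd34 at 283 ± 29.2 against 168 ± 38.8 CPM and Cd48 at 7.62 against 12.7 CPM. Of the T and NK cell list, Cd3g and Ncr1 had 0 counts and Cd3e at most 3, while Lck had 237 to 1160 counts in every library and Cd4 had 315 in IMP1 3 alone. Of the B-cell list, Igll1 (2300 counts), Cd79a (1170) and Ebf1 (986) stood in IMP1 2, with at most 9 counts of each in any other library. The neutrophil gene S100a8 stood at 8.91 ± 3.43 against 142 ± 118 CPM, and the granule gene Mpo at 11.01 ± 12.8 against 0.0105 ± 0.0181 CPM. The summed markers of neutrophils and monocytes ranged from 708 to 822 CPM in Control and from 488 to 927 CPM in IMP1 libraries, and those of erythroid cells from 3374 to 4198 and from 3884 to 5239 CPM. Of the neutrophil and monocyte list 7 of 9 genes were tested and 0 called by edgeR. The unadjusted p was under 0.05 for 2 that were higher (28.6%, beside 6.67% of all tested genes) and 3 that were lower (42.9%, beside 7.63%). Of the erythroid list 6 of 9 were tested and 1, Hbb-b1, was called higher by edgeR (beside 0.0703% of all tested genes). The part of such cells in the results below was not tested.

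The upstream sequences are shown for the 3 members with the lowest unadjusted p in the edgeR test described below. These are the ADP/ATP carriers Slc25a5 and Slc25a4, with lower values in every IMP1 library, and the pyrimidine nucleotide carrier Slc25a36, with higher ones. Of these, edgeR called Slc25a5 alone at an adjusted p under 0.05. Each run is the 250 bases before the RefSeq start site in the GRCm38.p6 build, 5′ to 3′ on the gene's strand. The Slc25a5 run is chrX:36795347-36795596 on the plus strand, the Slc25a4 run chr8:46211063-46211312 on the minus strand and the Slc25a36 run chr9:97111042-97111291 on the minus strand. Capitals mark 7 motifs searched on both strands. The letters searched were TATAA for the TATA element, CCAAT for the CAAT element, GGGCGG for the GC element, CCGGAAG for the ETS core, TGCGCA for the NRF1 motif, AAGGTCA for the motif of oestrogen-related receptors and CACGTG for the E-box.
Slc25a5: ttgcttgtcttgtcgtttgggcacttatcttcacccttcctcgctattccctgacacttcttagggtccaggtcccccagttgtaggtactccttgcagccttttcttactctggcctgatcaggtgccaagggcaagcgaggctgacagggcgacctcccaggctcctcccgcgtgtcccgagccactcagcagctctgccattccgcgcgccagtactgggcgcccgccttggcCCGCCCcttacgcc
Slc25a4: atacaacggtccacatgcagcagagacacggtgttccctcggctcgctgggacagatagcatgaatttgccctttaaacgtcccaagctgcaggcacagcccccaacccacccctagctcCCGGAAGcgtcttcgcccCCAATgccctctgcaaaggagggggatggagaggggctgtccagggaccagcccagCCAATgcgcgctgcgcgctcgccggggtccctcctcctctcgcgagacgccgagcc
Slc25a36: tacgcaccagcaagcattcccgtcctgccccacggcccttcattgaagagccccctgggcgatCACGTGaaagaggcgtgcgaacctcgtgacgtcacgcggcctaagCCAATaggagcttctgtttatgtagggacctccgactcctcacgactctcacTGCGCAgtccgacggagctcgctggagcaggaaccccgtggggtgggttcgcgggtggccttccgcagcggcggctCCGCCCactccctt
Slc25a5 held 1 match, a GC element on the minus strand at bases −14 to −9 from the start. Slc25a36 held a GC element at the same distance and on the same strand, and also 1 CAAT element, 1 NRF1 motif and 1 E-box. Slc25a4 held a pair of CAAT elements and 1 ETS core. Among the 36 members with a listed promoter, 24 held the GC element (66.7%, against 32.9% of 27025 mouse promoters of the same length), 16 the CAAT element (44.4% against 34.5%), 6 the ETS core (16.7% against 7.05%), 6 the E-box (16.7% against 6.05%), 4 the NRF1 motif (11.1% against 6.66%), 2 the TATA element (5.56% against 23.5%) and 1 the receptor motif (2.78% against 4.05%). The GC content was 61.6%, 64.8% and 64.4% in the runs of Slc25a5, Slc25a4 and Slc25a36, beside a median of 52% over all promoters. The part of GC content in these shares was not tested. A match describes letters only and is not shown to be a bound site.

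Levels are given as counts per 1e6 counts of a library after trimmed mean of M values (TMM) scaling, in short CPM, and a ± b stands for the mean and SD over 3 libraries, with Control first. The family as a whole took 0.402% to 0.416% of the counts of a Control library and 0.307% to 0.369% of those of an IMP1 library. In summed CPM it stood at 4278, 4184 and 4242 in Control 1 to 3 and at 3592, 2974 and 3159 in IMP1 1 to 3 (means 4235 ± 47.2 and 3242 ± 317, SD, n = 3), and the groups did not overlap. Slc25a5 alone made up 89.8% of that difference of 993 CPM. Without it the other 46 members summed to 2170 ± 58.3 CPM against 2068 ± 130.4 CPM in the IMP1 libraries. Slc25a5 held 50.8%, 47.6% and 47.8% of the family's CPM in Control 1 to 3 and 38.4%, 34.1% and 35.7% in IMP1 1 to 3. These are bulk libraries, in which a smaller share of cells that express a gene and less of its RNA per cell cannot be told apart.

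**Figure D1:**
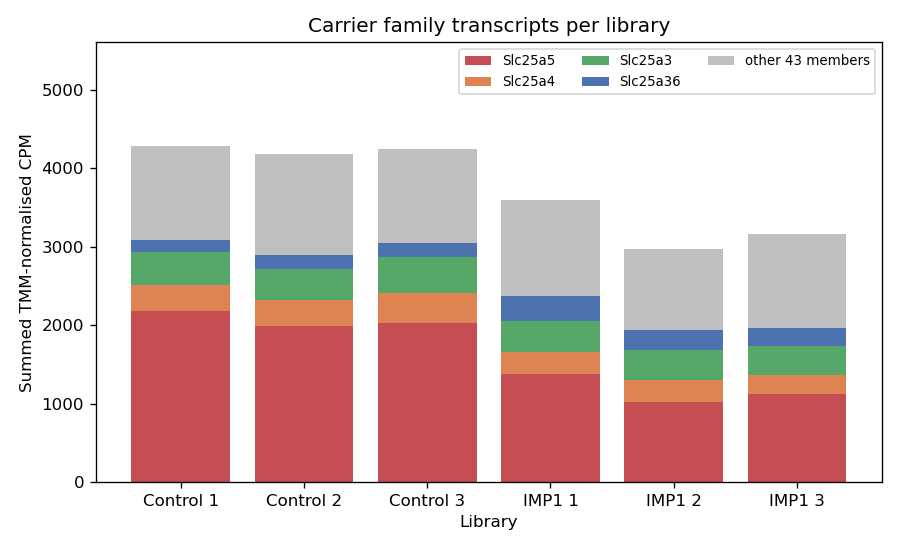
Summed TMM-normalised CPM of the 47 carrier genes (y axis, from 0) in each of the 6 libraries (x axis), stacked by gene. The Slc25a5 segment is shorter in the 3 IMP1 libraries, while the sum without it averages 2170 and 2068 CPM.

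Of the 47 members, 41 passed the filter on low counts and were tested by edgeR's quasi-likelihood test over all 12807 genes that passed. Slc25a5 was called lower at a Benjamini-Hochberg adjusted p under 0.05, and 0 members were called higher. Over all tested genes 0.211% were called in either direction, 0.141% lower and 0.0703% higher. At an unadjusted p under 0.05, 3 members were lower (Slc25a5, Slc25a4 and Slc25a17) and 2 higher (Slc25a36 and Slc25a46), together 12.2% of the tested members, where the share over all tested genes was 14.3% (7.63% lower and 6.67% higher). DESeq2 called 2 members lower (3.05% of all genes) and 1 higher (2.37%), and limma-voom called 0 (of all genes it called 0.0859%, with 0.0781% lower and 0.00781% higher). The log2 fold change, here always IMP1 against Control, was negative for 22 members and positive for 19, and its median of −0.13 stood beside 0.03 over all tested genes. The 3 Control and 3 IMP1 values did not overlap for 6 members, or 14.6%, beside 21.9% of all tested genes. Of these members 5 were lower (12.2%, beside 11.1% of all genes) and 1 was higher (2.44%, beside 10.7%). At an unadjusted p under 0.05 the shares of the members, 7.32% lower and 4.88% higher, thus lay close to the background. Among groups without overlap the lower share was close to it and the higher share below it. The single edgeR call, Slc25a5, made up 2.44% of the tested members, beside 0.141% of all genes called lower.

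**Figure D2:**
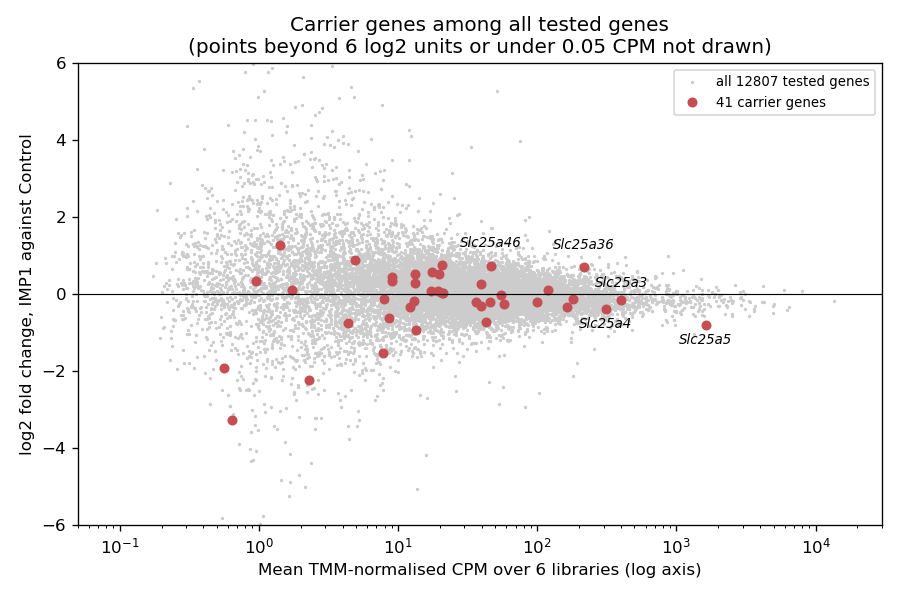
Log2 fold change of IMP1 against Control (y axis) plotted against mean CPM over 6 libraries (x axis, log scale) for all tested genes (grey) and the 41 tested carrier genes (red). Slc25a5 lies lowest among the carriers above 100 CPM, at −0.82, and Slc25a36 highest among them, at 0.71.

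The ADP/ATP carriers, or adenine nucleotide translocases, bring ADP into the matrix and export the ATP made there. Slc25a5, also called Ant2 (Entrez gene 11740), is the form typical of dividing and blood cells, and it was the carrier with the highest level per kilobase of transcript in both groups, at 1665 ± 77.3 CPM per kb against 946 ± 150.2 CPM per kb in IMP1 cells. Its library values were 2174, 1993 and 2028 CPM in the Control libraries and 1378, 1014 and 1127 CPM in the IMP1 libraries. Every IMP1 value lay below every Control value, and the highest of them, in IMP1 1, was 1378 CPM against a lowest Control value of 1993. Slc25a5 fell by 0.82 on the log2 scale (SE 0.11, edgeR quasi-likelihood adjusted p = 0.0467, n = 3 per group, lower in 3 of 3 libraries), a fitted change of −43.2%. The call lay close to the threshold: the adjusted p was 1.76e-09 with DESeq2, 0.0638 with limma-voom, 0.0931 with the replicate number as a block and 0.0901 once a trend on transcript length and GC was taken out (log2 fold change −0.68), and leaving out any 1 of the 6 libraries gave 0.0540 to 0.190, with log2 fold changes of −0.95 to −0.72. Over 17 alternatives it ranged from 1.76e-09 to 0.190. The reference holds 7 other genes, all absent from the count table, with transcripts at least 90% identical to Slc25a5 over 500 bases or more, so its count can depend on how shared reads were assigned.

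Slc25a4, or Ant1, the form of heart and muscle, stood at 343, 329.8 and 381 CPM in the Control libraries and 275, 290.4 and 241 CPM in the IMP1 libraries. The groups did not overlap, and the log2 fold change was −0.39 (SE 0.11, adjusted p = 0.192 by edgeR's quasi-likelihood test), which did not pass. DESeq2 gave an adjusted p of 0.0469 and the 16 other alternatives gave 0.167 to 0.475. Slc25a31, the testis form, had 32 counts in Control 1 and 0 in the other libraries. Per length, Slc25a5 stood at 9.85, 9.38 and 8.26 times the level of Slc25a4 in Control 1 to 3 and at 7.78, 5.42 and 7.27 times in IMP1 1 to 3. The share of Slc25a4 among the counts per length of both genes was thus 9.88% ± 0.819 in Control and 13.02% ± 2.24 in IMP1 cells, with no overlap (exact two-sided permutation p = 0.1, the smallest that 3 against 3 libraries can give, and 0.7 adjusted over the 7 shares of paralogues compared).

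Slc25a5 lies on the X chromosome, as do 3 other members. Xist, the RNA that silences 1 X chromosome in female cells, was present in all libraries at 189 ± 33.7 against 370.3 ± 44.1 CPM (log2 difference 0.97, edgeR adjusted p = 0.0614), while transcripts of the Y-linked genes Ddx3y, Eif2s3y, Kdm5d and Uty had at most 6 counts in any library. The 448 tested X-linked genes had a median log2 fold change of 0.08, with an unadjusted p under 0.05 for 42 that were higher (9.38%, beside 6.67% of all tested genes) and 30 that were lower (6.70%, beside 7.63%), and 1 was called, Slc25a5. Of the other X-linked carriers, Slc25a14 stood at 0.07 and Slc25a53 at −0.13 on the log2 scale. Slc25a43, with counts near 0 in 3 libraries, stood at −2.25 (SE 1.99). The part of the Xist difference in the Slc25a5 result was not tested.

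**Figure D3:**
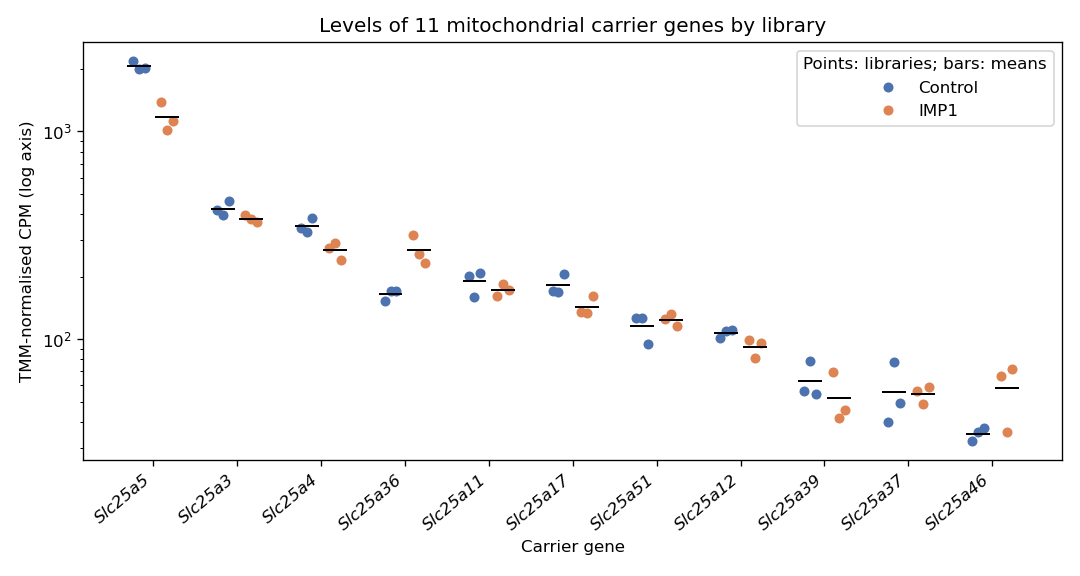
TMM-normalised CPM (y axis, log scale) of the 11 carriers with an unadjusted p under 0.05 or among the 10 most abundant (x axis), with 1 point per library and bars at group means. Groups are apart for Slc25a5, Slc25a4, Slc25a17, Slc25a12 and Slc25a36, and overlap for the rest.

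Slc25a3, the phosphate carrier, supplies phosphate to ATP synthase and was second per length, at 264 ± 20.8 CPM per kb in Control and 236 ± 9.68 CPM per kb in IMP1 cells. Its values were 419.8, 395 and 462 CPM in the Control libraries and 396, 379 and 365 CPM in the IMP1 libraries, and the groups overlapped only where Control 2 lay just below IMP1 1. The log2 fold change was −0.16 (SE 0.10, adjusted p = 0.515). Per length, Slc25a3 and Slc25a4 thus came next, several times below Slc25a5 in either group.

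The ATP-magnesium/phosphate carriers adjust the size of the matrix adenine nucleotide pool, most of them in response to calcium. Slc25a24 stood at 43.02, 49.98 and 38.9 CPM in the Control libraries and 40.7, 13.8 and 52.2 CPM in the IMP1 libraries, and IMP1 2 was the low library. Slc25a23 stood at 13.95 ± 1.33 against 12.3 ± 3.43 CPM. Slc25a25 had 115, 141 and 11 counts in Control and 750, 505 and 1 in IMP1, so 1 library of each group held few of its reads. Slc25a41 had 0, 64 and 0 counts in Control and 68, 5 and 106 in IMP1. Log2 fold changes of these 4 genes ran from −0.31 to 0.88, with adjusted p of at least 0.810 by edgeR. The share of Slc25a23 per length among Slc25a23, Slc25a24 and Slc25a25 was 23.3% ± 1.34 in Control and 25.04% ± 10.1 in IMP1 cells (exact permutation p = 0.8).

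Among the carriers of di- and tricarboxylates, Slc25a11, which exchanges oxoglutarate for malate in the malate-aspartate shuttle, was the most abundant per length. It stood at 202, 159 and 208 CPM in the Control libraries and 162, 184 and 172 CPM in the IMP1 libraries, with overlapping groups (log2 fold change −0.14, SE 0.14, adjusted p = 0.719). Slc25a1 exports citrate, the source of cytosolic acetyl-CoA, and stood at 35.9 ± 4.05 against 42.7 ± 10.03 CPM (0.25, SE 0.25). Slc25a10, which exchanges dicarboxylates for phosphate, stood at 10.03, 21.5 and 21.5 CPM in the Control libraries and 12.1, 5.51 and 10.1 CPM in the IMP1 libraries (−0.94, SE 0.47, adjusted p = 0.425), where Control 1 overlapped the IMP1 values. Slc25a21, the oxodicarboxylate carrier, had 8, 50 and 5 counts in Control and 361, 8 and 12 in IMP1, most of them in IMP1 1. Per length, Slc25a10 made up 7.45% ± 3.17 of Slc25a10 and Slc25a11 together in Control and 4.38% ± 1.76 in IMP1 cells (exact permutation p = 0.3).

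The aspartate-glutamate carriers give the malate-aspartate shuttle its direction. Slc25a12 stood at 101, 109 and 111 CPM in the Control libraries and 99.2, 81.3 and 95.99 CPM in the IMP1 libraries, and the groups did not overlap, though the log2 fold change of −0.22 (SE 0.15, adjusted p = 0.556) did not pass. Slc25a13, also called citrin, stood at 15.03, 27.5 and 19.9 CPM in the Control libraries and 35.1, 13.9 and 14.2 CPM in the IMP1 libraries, with the highest value in IMP1 1. Slc25a12 was 72.1% ± 5.45 of both genes per length in Control and 69.7% ± 10.1 in IMP1 cells (exact permutation p = 0.9). The glutamate carrier Slc25a22 stood at 20.7 ± 2.54 against 20.9 ± 4.02 CPM, and its paralogue Slc25a18, which was not tested, had 0, 0 and 8 counts in Control and 0, 55 and 11 in IMP1.

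Carriers of other amino acids were low and varied between libraries. Slc25a15, the ornithine carrier of the urea cycle, stood at 8.603, 27.4 and 6.32 CPM in the Control libraries and 31.8, 16.9 and 13.6 CPM in the IMP1 libraries. Its paralogue Slc25a2 had 83, 10 and 0 counts in Control and 17, 6 and 0 in IMP1, and the basic amino acid carrier Slc25a29 had 201 counts in Control 2 and at most 3 in any other library. Slc25a38 carries glycine for haem synthesis and stood at 15.3, 4.55 and 21.4 CPM in the Control libraries and 17.8, 0.577 and 14.01 CPM in the IMP1 libraries, lowest in IMP1 2. Slc25a44, a carrier of branched-chain amino acids, stood at 21.9, 24.3 and 10.1 CPM in the Control libraries and 27.6, 6.51 and 25.4 CPM in the IMP1 libraries, with the low value again in IMP1 2. None of the 4 tested members of these classes had an adjusted p below 0.506 in the edgeR test.

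Slc25a20, the carnitine-acylcarnitine carrier that admits long-chain fatty acids for oxidation, stood at 56.9, 61.8 and 41.5 CPM in the Control libraries and 16.9, 45.5 and 33.7 CPM in the IMP1 libraries. The lowest value, in IMP1 1, was far below the lowest Control value, and IMP1 2 lay within the Control range (log2 fold change −0.74, SE 0.36, adjusted p = 0.419).

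The carriers of nucleotides and cofactors held the clearest member with a positive difference. Slc25a36 moves pyrimidine nucleotides, which mitochondrial DNA and RNA synthesis require. Its values were 154, 171 and 169.9 CPM in the Control libraries and 318, 258 and 232 CPM in the IMP1 libraries. The groups did not overlap, with a lowest IMP1 value of 232 CPM against a highest Control value of 171 CPM. The log2 fold change was 0.71 (SE 0.14, n = 3 per group, higher in 3 of 3 libraries), and the adjusted p of 0.0850 by edgeR's quasi-likelihood test did not pass. It was 0.000353 with DESeq2 and 0.0322 with the strict filter, and 0.0791 to 0.230 in the other 15 alternatives. Once the length and GC trend was taken out, the log2 fold change was 0.48 (adjusted p = 0.211). Its share of the family's CPM was 3.89% ± 0.268 in Control and 8.29% ± 0.819 in IMP1 cells. The family's sum was itself lower in IMP1 libraries (4235 against 3242 CPM), so this share rose by more than the level of Slc25a36. The paralogue Slc25a33 was not tested and had 5, 2 and 6 counts in Control and 98, 4 and 13 in IMP1, so Slc25a36 supplied nearly all pyrimidine carrier reads in both groups. A pseudogene in the reference is 94.8% identical to Slc25a36 over 963 bases.

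Slc25a17, a carrier of coenzyme A and related cofactors in the peroxisome membrane, stood at 171, 169 and 205 CPM in the Control libraries and 136, 133 and 161 CPM in the IMP1 libraries. The groups did not overlap, and the log2 fold change was −0.34 (SE 0.14, adjusted p = 0.320). Slc25a51, the mitochondrial NAD+ carrier, stood at 116 ± 18.4 against 124 ± 8.46 CPM (0.10, SE 0.16). Slc25a32, which carries folate or FAD, stood at 10.9 ± 6.04 against 15.5 ± 5.94 CPM, and the coenzyme A carrier Slc25a42 at 7.93 ± 0.941 against 10.1 ± 2.06 CPM. Slc25a26, which brings in S-adenosylmethionine, stood at 10.4 ± 2.71 against 6.79 ± 2.97 CPM, and Slc25a16 at 7.69 ± 3.52 against 10.5 ± 5.31 CPM. The adjusted p of these last 4 was at least 0.643, and their groups overlapped.

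Slc25a39 imports glutathione into mitochondria, and Slc25a40 is its close relative. Slc25a39 stood at 56.3, 78.5 and 54.3 CPM in the Control libraries and 69.4, 41.6 and 45.5 CPM in the IMP1 libraries, and Slc25a40 at 22.6, 14.1 and 10.05 CPM in the Control libraries and 20.6, 33.7 and 23.8 CPM in the IMP1 libraries. Their log2 fold changes were −0.27 (SE 0.26) and 0.74 (SE 0.39, adjusted p = 0.449), in opposite directions. Slc25a39 made up 86.9% ± 5.54 of both per length in Control and 75.9% ± 8.86 in IMP1 cells, with overlapping values (exact permutation p = 0.2, and 0.7 adjusted over the 7 shares).

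The mitoferrins Slc25a37 and Slc25a28 import iron for haem and iron-sulphur clusters, Slc25a37 chiefly in red-cell precursors. Slc25a37 stood at 40.05, 78.0 and 49.5 CPM in the Control libraries and 56.2, 48.6 and 59.04 CPM in the IMP1 libraries, highest in Control 2, and its log2 fold change was −0.033 (SE 0.27). Slc25a28 stood at 11.9 ± 3.29 against 14.4 ± 5.26 CPM (0.28, SE 0.43). Alas2, the red-cell enzyme that starts haem synthesis, had 2, 2 and 12 counts in Control and 75, 175 and 71 in IMP1 (log2 fold change 2.98, SE 1.08, adjusted p = 0.275). Slc25a28 per length was 37.6% ± 12.9 of both mitoferrins in Control and 41.02% ± 11.7 in IMP1 cells (exact permutation p = 0.8).

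Slc25a46 encodes a carrier relative in the outer membrane that takes part in mitochondrial fusion and fission. It stood at 32.2, 35.9 and 37.3 CPM in the Control libraries and 66.5, 35.7 and 71.7 CPM in the IMP1 libraries. The values of IMP1 1 and IMP1 3 were well above all Control values, while IMP1 2 lay within the Control range (log2 fold change 0.72, SE 0.29, adjusted p = 0.306). Among the relatives of the uncoupling proteins, Slc25a27 stood at 16.2 ± 7.83 against 23.1 ± 9.74 CPM, Slc25a14 at 16.8 ± 3.59 against 17.7 ± 9.73 CPM and Slc25a30 at 5.48 ± 2.64 against 3.26 ± 0.679 CPM, with overlapping groups. Of the 8 members given no role here, Slc25a45 was the most abundant per length, at 45.2 to 54.7 CPM in Control against 40.7 to 44.9 CPM in IMP1 cells, groups that just missed overlapping (−0.21, SE 0.20). Slc25a53 stood at 8.35 against 7.61 CPM, Slc25a35 at 11.7 against 4.02 CPM, Slc25a47 at 1.67 against 1.78 CPM and Slc25a34 at 0.886 against 0.234 CPM. Slc25a48 had 0 counts in all libraries and Slc25a54 had 14 in Control 1 alone.

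**Figure D4:**
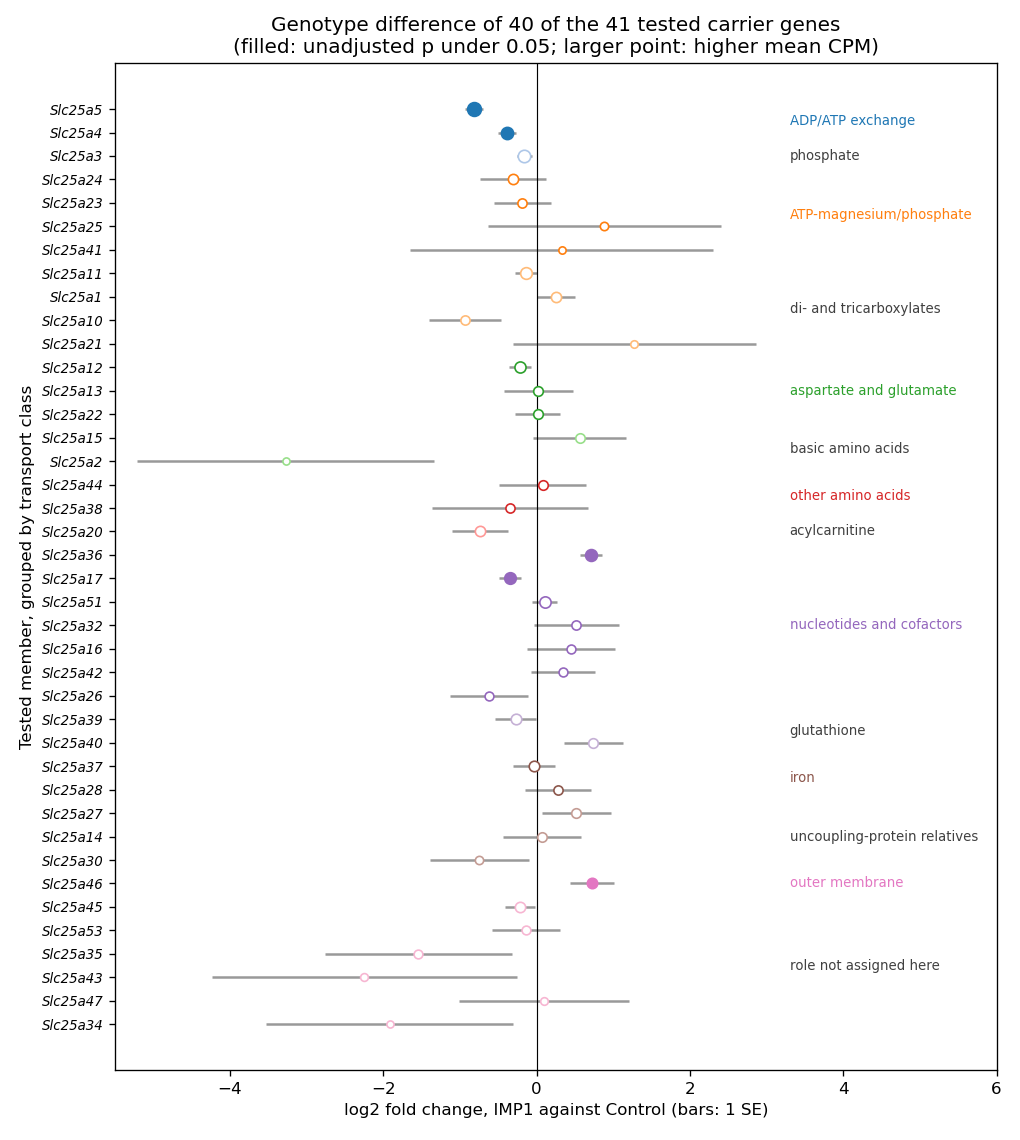
Log2 fold change of IMP1 against Control with 1 SE (x axis) for 40 of the 41 tested carriers, grouped by the solute they move (y axis). Both tested ADP/ATP carriers lie left of 0, and the other filled points are Slc25a36, Slc25a17 and Slc25a46.

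Members differed widely in how well they were measured. The 7 members above 100 CPM over all libraries had coefficients of variation of 4.64% to 15.9% between the Control libraries and 4.11% to 16.4% between the IMP1 libraries. The 21 members at 10 to 100 CPM had medians of 27.7% and 36.6%, and the 13 tested members up to 10 CPM medians of 48.1% and 88.4%. Several of the latter were nearly absent from a single library, as Slc25a25 from IMP1 3 and Slc25a35 from IMP1 2. In IMP1 2, 6 members lay more than 3-fold below both other libraries of their group (Slc25a14, Slc25a35, Slc25a38, Slc25a41, Slc25a43 and Slc25a44), or 14.6% of those tested, beside 4.18% of all tested genes in that library. The other libraries did so for 1 to 3 members each. IMP1 2 had the highest total, 67083116 counts, of the 6 libraries, and it was the library with the B-cell transcripts given above, whose part in these low values was not tested. For 7 members (Slc25a2, Slc25a11, Slc25a21, Slc25a25, Slc25a26, Slc25a35 and Slc25a53) the annotation places another counted gene over part of the locus, and Slc25a3 and Slc25a40 have pseudogenes of similar sequence, so their counts are less certain. Differences of the members under 10 CPM were not detectable against this spread.

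**Figure D5:**
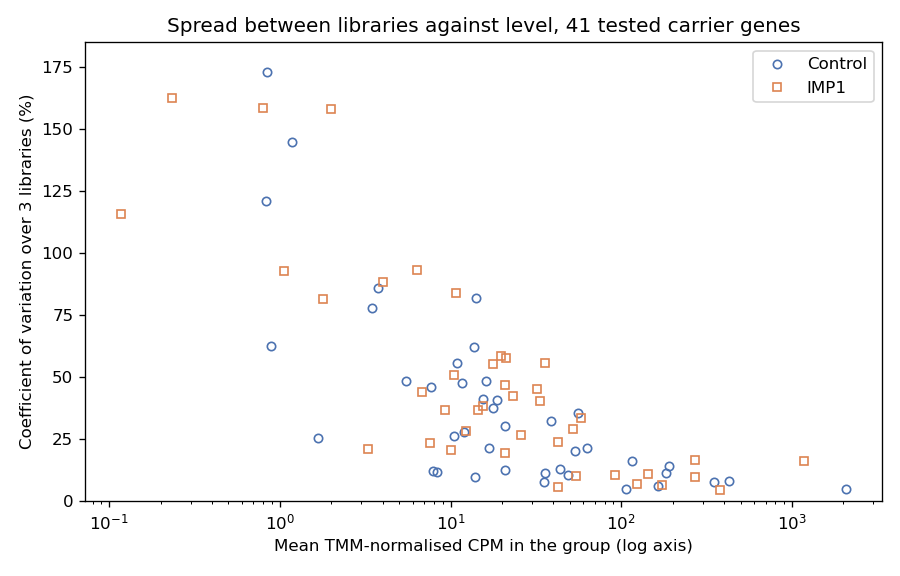
Coefficient of variation over the 3 libraries of a group in percent (y axis) against the group's mean CPM (x axis, log scale) for the 41 tested carriers. Members above 100 CPM stay at or below 16.4%, and low members reach 173%.

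Transcript length moved with the differences. The 3 members with a negative difference at an unadjusted p under 0.05 have transcripts of 1240 (Slc25a5), 1925 (Slc25a4) and 1724 (Slc25a17) bases, and the 2 with a positive one have 5227 (Slc25a36) and 4371 (Slc25a46) bases. Of the 11 members above 10 CPM with transcripts under 2000 bases 8 were negative, with a median log2 fold change of −0.27. Of the 17 longer ones 7 were negative, with a median of 0.02. Among those 7 was Slc25a12, at 6351 bases, with −0.22, and with −0.41 once the length and GC trend was taken out. Over all tested genes above 10 CPM, 71.2% of the shorter ones were negative, with a median of −0.17, and 45.5% of the longer ones, with a median of 0.05. After a smooth trend on length and GC content was taken out of each library, the log2 fold changes became −0.68 for Slc25a5, −0.23 for Slc25a4, −0.29 for Slc25a17, 0.48 for Slc25a36 and 0.53 for Slc25a46, and 0 members were called by edgeR (3 at an unadjusted p under 0.05).

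The 3 tested carriers that bear other symbols all had negative differences. Ucp2, the uncoupling protein relative abundant in blood cells, stood at 492, 473 and 469 CPM in the Control libraries and 317, 235 and 286 CPM in the IMP1 libraries, with no overlap (log2 fold change −0.78, SE 0.12, adjusted p = 0.0614). Mtch2, an outer-membrane member, stood at 229 ± 5.71 against 170.1 ± 25.1 CPM (−0.43, SE 0.13, adjusted p = 0.218), and Mtch1 at 41.7 against 38.8 CPM (−0.10). Ucp1 and Ucp3 had 0 counts in all libraries. Of these 3 tested genes 0 were called by edgeR and by limma-voom, and DESeq2 called 1 lower (beside 3.05% of all tested genes). At an unadjusted p under 0.05, 2 were lower (beside 7.63%).

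Genes that work beside the carriers were read from lists of related genes, whose counts at an unadjusted p under 0.05 stand beside shares of 7.63% lower and 6.67% higher over all tested genes. Of 16 genes of the TIM22 route and the TOM complex, which insert carriers into the membrane, 16 were tested and 0 were called by edgeR, DESeq2 or limma-voom. Of these, 1 was higher at an unadjusted p under 0.05 (Tomm70a, the receptor for carrier precursors, 80.3 ± 6.49 against 106 ± 15.2 CPM, log2 fold change 0.40) and 1 lower (Timm8a1, 118 ± 11.2 against 87.3 ± 10.7 CPM, −0.43), and the median log2 fold change was −0.14. The most abundant members were Tomm7 (179 against 155 CPM) and Tomm20 (133 against 159.6 CPM). Of 23 tested genes for other mitochondrial transporters and channels 0 were called by edgeR and by limma-voom. DESeq2 called 2 of them lower, beside 3.05% of all tested genes. At an unadjusted p under 0.05 4 were lower (17.4%) and 2 higher (8.70%), and the median log2 fold change was −0.13. Mpc1, a subunit of the pyruvate carrier, stood at 154, 186 and 215 CPM in the Control libraries and 119, 112 and 90.5 CPM in the IMP1 libraries (−0.79, SE 0.17, adjusted p = 0.0991), with no overlap. The outer-membrane channel Vdac3 stood at 573 ± 75.6 against 417 ± 59.8 CPM (−0.46) and Tspo at 155 ± 25.2 against 109 ± 13.2 CPM (−0.51), both with no overlap, while Vdac2 stood at 338 against 333 CPM.

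Of 15 tested enzymes of the malate-aspartate and citrate shuttles 11 were negative, with a median log2 fold change of −0.21. None was called by edgeR or limma-voom (0 of 15), and DESeq2 called 1 lower (beside 3.05% of all tested genes). At an unadjusted p under 0.05, 3 were lower (20%, beside 7.63% of all tested genes). Among them were Idh3a (284 ± 15.3 against 209 ± 33.1 CPM, −0.44) and Mdh2 (599 ± 34.3 against 509.8 ± 20.5 CPM, −0.23). Mdh1, the cytosolic malate dehydrogenase, stood at 794 against 688 CPM. Of 15 tested partners in carnitine, one-carbon, haem and iron metabolism 8 were positive, with a median of 0.0090, and 0 were called by the 3 tools, with 1 higher at an unadjusted p under 0.05 (Alas2, above). Cpt1a, which makes the acylcarnitines that Slc25a20 imports, stood at 78.2 against 77.4 CPM, and Shmt2 stood at 87.6 against 65.8 CPM. Of 12 genes of mitochondrial content and biogenesis 8 were positive, with a median of 0.16, and 0 had an unadjusted p under 0.05 or a call by any of the 3 tools. Of the most abundant, both matrix chaperones, Hspd1 stood at 466 against 465 CPM and Hspa9 at 249 against 254 CPM.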

How the data were processed

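Values in the deposited table are the authors' raw counts, whole numbers by Entrez identifier, with each library in its own column. The submitters' processing notes name TopHat2 2.0.10 and mm9 and do not say what each was used for. The counter, its strand setting and its handling of shared reads are not given in the sources used here. Symbols came from a RefSeq table of GRCm38.p6, which matched 21615 of 21761 identifiers. Members and lists were chosen with earlier results of these data known.

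Genotype was tested with edgeR 4.0.16 (glmQLFit and glmQLFTest, defaults, TMM scaling, filterByExpr, no covariate, all 6 libraries) in R 4.3.3, with Benjamini-Hochberg adjustment over 12807 genes. SEs are the absolute log2 fold change over the square root of F. Alternatives used DESeq2 1.42.0, limma-voom (limma 3.58.1), other scalings, no filter or a strict filter (1 CPM in all 6 libraries), a replicate block, thinning to 25749898 counts, removal of a length and GC trend (loess, span 0.4) and each library left out. Lengths are those of the longest protein-coding GENCODE transcript, so levels per kb are approximate. The code was tested on simulated data. Named members are those with an unadjusted p under 0.05, the 10 most abundant, members at 0 in 1 group and the paralogue pairs; the other members are given by class. Of each related list, members with an unadjusted p under 0.05 (at most 3) and the 2 most abundant were named. Some genes are not reported here. Single marker genes were chosen after their values were seen. Levels are mean ± SD over 3 libraries; nothing states how many animals were used, so p-values measure the spread between libraries. The sources used here name no molecular identifiers. No libraries were duplicates (chi-square per degree of freedom at least 62.9).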

Additional observations from a re-analysis of the deposited data

How the results depend on the processing

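Slc25a5 was lower and Slc25a36 higher under all 17 alternatives. The count of members called, 1 (lower), became 3 with DESeq2 (2 lower, 1 higher), 2 with the strict filter (1 higher), and 0 by limma-voom, without scaling beyond the total, with the length and GC trend removed, and with each library left out (lowest and highest 0). The count at an unadjusted p under 0.05, 5, was 3 with the trend removed and 3 to 6 with a library left out. The median log2 fold change of −0.13 ranged from −0.24 (without IMP1 1) to 0.049 (without Control 2) with a library left out, and was 0.043 without IMP1 2. Deviations of same-numbered libraries from their group means had correlations of 0.015, 0.031 and −0.0083. A small shared effect could give such values, so they do not settle whether the numbers pair libraries. With the replicate number as a block 0 members were called, 0 lower, and Slc25a37 stood at 0.022. Over all genes 27 were called, and 694 with DESeq2, 11 with limma-voom, 49 with edgeR's newer dispersion setting, 16 without scaling, 145 with the strict filter, 13 with the trend removed, 4 with the block and 0 to 2 with a library left out. Small differences changed sign: Slc25a11 to 0.052 and Slc25a51 to −0.0072 with the trend removed, Slc25a51 to −0.024 without Control 3 (to 0.17 with others left out), and Slc25a37 to 0.015 with limma-voom, 0.062 without scaling, 0.29 without Control 2 and 0.043 without IMP1 2 (lowest −0.22, with Control 1 left out). Among paralogue shares (IMP1 minus Control, percentage points), that of Slc25a12 became 0.024 without Control 1 and 3.44 without IMP1 1 (lowest −5.94), Slc25a28 −2.28 without Control 2 and −1.59 without IMP1 2 (highest 10.4), Slc25a33 −0.11 without IMP1 1 (highest 0.52) and Slc25a23 −3.56 without IMP1 2 (highest 6.55). The cause of these changes was not tested. Depth was higher in IMP1 libraries; thinned to equal totals, Slc25a5 stood at −0.82 (adjusted p = 0.0387).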
